A study of Physcomitrium patens with 20 samples.

Results

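Chromosome 10 of the moss Physcomitrium patens is represented by 1194 of the 31967 gene rows of a table of mRNA read counts, 3.74% of them. The members are the rows whose identifiers start with Pp3c10_. The chromosome was chosen by its measured levels in these data, because its genes stood higher as a whole in the cmt/dnmt3b libraries, by a lesser factor than those of chromosome 16. Its level in cmt/dnmt3b is therefore given as a description with no test. At least 1 count was found for 988 members in the 20 libraries, and 206 were at 0 in all of them. A mean level of at least 2 CPM, the count of a gene as a share of all gene counts of the library times 1000000, was reached by 637 members (53.4%, against 52.7% of all gene rows), and 773 passed the low-count filter of the test described further on.

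Polyadenylated RNA came from protonema grown for 7 days on BCDAT medium, of the cultivar that the labels spell Grandsen. The mutants lacked DNA methyltransferases: cmt/dnmt3b, met/dnmt3b, dnmt3b, cmt and drm12 (DRM1 and DRM2) with 3 libraries each, and met with 2, beside 3 libraries of wild type (wt). Batch 1 of the labels held met/dnmt3b, met and replicates 1 and 2 of cmt, drm12 and wt, and batch 2 held cmt/dnmt3b, dnmt3b and replicate 3 of cmt, drm12 and wt. The labels do not tell how the mutants were made, how many lines stand behind a genotype or whether replicates were grown as separate cultures. A p-value thus sets a difference against the scatter of these libraries, and that scatter may be technical.

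Protonema is the filamentous juvenile tissue of the moss and is haploid, so that each chromosome is normally present once in a nucleus. In this moss MET maintains methylation of CG sites and CMT that of CHG sites, while DNMT3b is the main enzyme for CHH sites in heterochromatin, and DRM1 and DRM2 belong to the family that small RNAs guide in flowering plants. These marks lie mainly on transposable elements, and loss of them is known to release silenced loci, some of which are annotated as genes. DNA of these libraries was not analysed here. No member's identifier matched the reference gene table, so members are named by identifier alone and no function is given to them. For the same reason neither the targeted methyltransferase genes nor markers of protonema were looked up. Rows of transposable elements carry numbers with no chromosome, so those of chromosome 10 could not be told from the rest.

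Gene counts summed to between 14221016 (wt replicate 3) and 21683973 (cmt replicate 3) per library. On the CPM scale the median gene of the whole genome was already 1.20 times as high in cmt/dnmt3b as in wt (0.26 on the log2 scale), and 0.11, 0.12 and 0.18 higher on the log2 scale in dnmt3b, cmt and met. Chromosome levels and fold changes were therefore taken relative to the genome, while CPM values of single members were not. The centred log2 level used below is the log2 of the level plus 0.5, minus the gene's median over the 20 libraries, minus the library's median over the 16836 genes that reached 2 CPM on average. Certain libraries stood apart on other chromosomes. Those of cmt/dnmt3b lay at 0.82 to 0.87 on chromosome 16, and wt replicate 3 lay at 0.91 on chromosome 19.

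The genes of chromosome 10 stood together at a raised level in each of the cmt/dnmt3b libraries and in no library of another genotype. Their median centred log2 level was 0.59, 0.46 and 0.59 in cmt/dnmt3b replicates 1, 2 and 3, which are factors of 1.5, 1.38 and 1.51. It was -0.047, -0.029 and -0.073 in wt replicates 1, 2 and 3. All 17 libraries outside cmt/dnmt3b lay in the narrow band from -0.084 (met/dnmt3b replicate 1) to -0.021 (dnmt3b replicate 3), far below the lowest cmt/dnmt3b library. The mean was 0.55 ± 0.07 in cmt/dnmt3b and -0.050 ± 0.022 in wt (SD, n = 3 each), a difference of 0.60. Within batch 2, where wt is 1 library, the difference was 0.62. In whole-tissue RNA a change in the make-up of cells and a change in RNA per cell cannot be told apart.

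**Figure D1:**
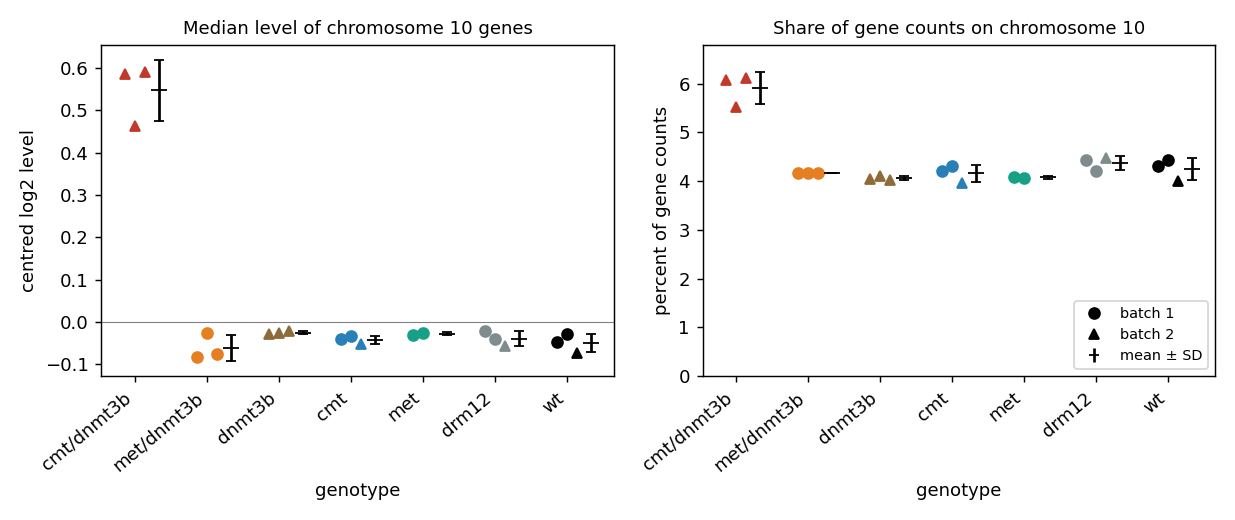
Left, median centred log2 level of the 637 chromosome 10 genes averaging 2 CPM or more, in each library. Right, percent of all gene counts on chromosome 10. Points are libraries (circles batch 1, triangles batch 2) and bars are mean ± SD. The 3 cmt/dnmt3b libraries lie at 0.46 to 0.59 and at 5.52 to 6.11%, above the other 17 in both panels.

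The share of all gene counts that fell on the chromosome showed the same split. It was 6.08%, 5.52% and 6.11% in cmt/dnmt3b replicates 1, 2 and 3, against 4.31%, 4.44% and 4.0% in wt replicates 1, 2 and 3. The means were 5.91% ± 0.331 in cmt/dnmt3b and 4.25% ± 0.227 in wt (SD, n = 3 each), a ratio of 1.39. With at least 14221016 gene counts in each library, counting error is small beside the spread between libraries. The 95% exact binomial interval of wt replicate 3, the shallowest library, ran from 3.99 to 4.01%, and such intervals cover counting error only. Among the other libraries the share ran from 3.97% (cmt replicate 3) to 4.47% (drm12 replicate 3), with no overlap with cmt/dnmt3b.

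In the 5 other mutants the chromosome as a whole differed from wt by little. The mean centred log2 level minus that of wt was -0.012 in met/dnmt3b, 0.024 in dnmt3b, 0.0071 in cmt, 0.021 in met and 0.0098 in drm12. By the two-sided exact permutation test over libraries the p was 0.1 for dnmt3b, the smallest that 3 against 3 libraries can give, and its adjusted p over the 5 tests was 0.5. By the same exact test p was 0.6 for met/dnmt3b, 0.7 for cmt, 0.4 for met and 0.6 for drm12 (adjusted p = 0.7 for each). In dnmt3b all 3 libraries lay above the 3 wt libraries, at -0.028, -0.027 and -0.021, but the dnmt3b libraries are all of batch 2 and wt replicates 1 and 2 of batch 1. Against the wt library of batch 2 the dnmt3b difference was 0.047, and without that library it was 0.012. The libraries of cmt and wt can be paired by replicate number, and the cmt minus wt differences in level were 0.0067, -0.0049 and 0.020 in pairs 1, 2 and 3 (exact sign-flip permutation p = 0.5, where 3 pairs can give no less than 0.25). The share of counts gave exact permutation p-values of 0.7 for met/dnmt3b, 0.4 for dnmt3b, 0.5 for cmt, 0.6 for met and 0.6 for drm12 (adjusted p = 0.7 for each). Its differences from wt lay between -0.19 percentage points in dnmt3b and 0.12 in drm12, and the 5 mutant means all fell within the range of the wt libraries. The dnmt3b difference was 0.065 within batch 2 and the drm12 difference was -0.053 within batch 1, so neither kept its sign. In the 3 pairs the share was lower in cmt than in wt each time, with differences of -0.11, -0.13 and -0.027 percentage points (exact sign-flip permutation p = 0.25, the smallest possible).

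The raised level extended over the full order of genes along the chromosome. In 12 successive parts of 53 or 54 genes, ordered by the number in the identifier, the mean over the cmt/dnmt3b libraries ran from 0.44 (members 4230 to 5860) to 0.64 (members 20740 to 22960). The lowest value of any cmt/dnmt3b library in any part was 0.33, and the highest of any other library was 0.24, so the groups did not overlap in any of the 12 parts. In 4 larger parts the cmt/dnmt3b means were 0.48, 0.54, 0.57 and 0.57 from the low to the high end of the numbering, which are factors of 1.40, 1.46, 1.49 and 1.48. A moving median over 31 genes stayed above 0 at all 607 positions in the mean of the cmt/dnmt3b libraries. It was lowest, at 0.21, around Pp3c10_4820 and highest, at 0.79, around Pp3c10_21680. At 579 of these 607 overlapping positions the lowest cmt/dnmt3b library lay above the highest of the other 17.

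**Figure D2:**
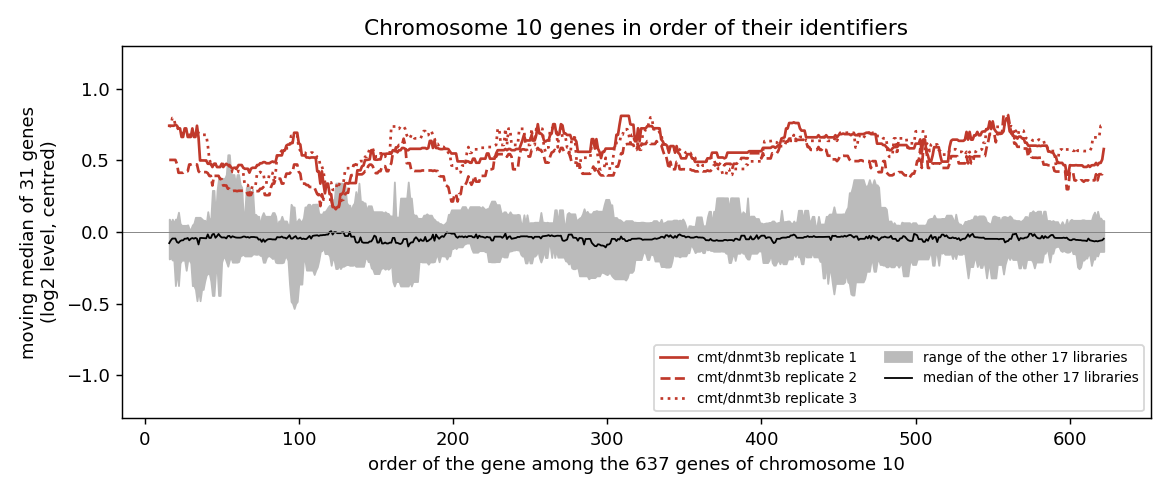
Moving median over 31 genes of the centred log2 level (vertical axis) along the 637 chromosome 10 genes in the order of their identifiers (horizontal axis). Red lines are the 3 cmt/dnmt3b libraries, the grey band is the range of the other 17 and the black line their median. The red lines run above the band at most positions, dip near gene 120 and lie lowest in replicate 2 over much of the chromosome.

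Among the cmt/dnmt3b libraries, replicate 2 held the lesser rise, and it did so along the whole chromosome. Its median was the lowest of the 3 in all 12 parts, against 3 of 12 parts on chromosome 16. Gene by gene, 460 of the 637 members (72.2%) were lower in replicate 2 than in the mean of replicates 1 and 3, with a median difference of -0.13. On chromosome 16 this share was 53.9%, and for the 15507 genes off both chromosomes it was 48.5%. The same library was the highest of the 3 on chromosomes 13, 18, 25 and 27, at 0.18, 0.16, 0.22 and 0.22. In replicates 1 and 3 these chromosomes lay between -0.01 and 0.10.

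Most single members moved with the chromosome. The shift of a gene, taken as its mean centred log2 level over the 3 cmt/dnmt3b libraries minus that over the other 17, had a median of 0.63 (a factor of 1.55) over the 637 members. The quartiles were 0.35 and 0.90. It was above 0 for 574 members (90.1%) and at or below 0 for 63, where 96.0% of chromosome 16 genes and 50.7% of the other genes lay above 0. Of the 637 members, 12 reached 2 CPM only with the cmt/dnmt3b libraries in the mean. On chromosome 16 the median was 0.92 (a factor of 1.90), and over the other genes it was 0.0067. The spread was alike in the 3 sets: the interquartile range was 0.55 on chromosome 10, 0.56 on chromosome 16 and 0.56 elsewhere. A shift of at least 1 was found for 117 members (18.4%), against 42.8% of chromosome 16 genes and 4.01% of the others. All 3 cmt/dnmt3b libraries lay above all 17 others for 210 members (33%), where 6.71% of all 16836 genes did, and below all of them for 4 (0.628%), where 3.55% did. Since the chromosome was picked for this contrast, nothing is read from these counts.

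**Figure D3:**
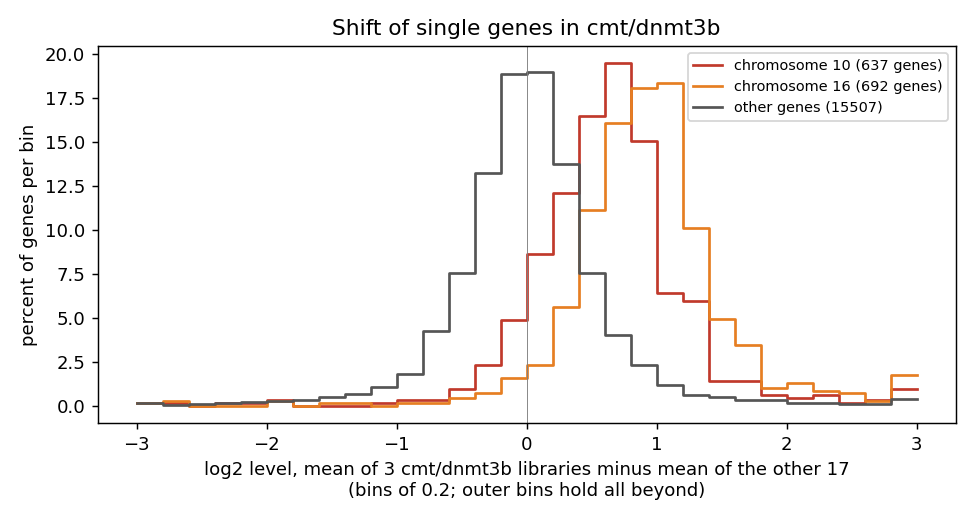
Percent of genes per bin (vertical axis) by their log2 shift in cmt/dnmt3b against the other 17 libraries (horizontal axis), for chromosome 10, chromosome 16 and all other genes. The 3 curves have like widths and differ in place, with medians of 0.63, 0.92 and 0.0067.

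The median shift was smaller in members of higher level, and likewise in the rest of the genome. Members were split into 5 equal classes by their mean level over the 20 libraries. From the lowest class (2.02 to 11 CPM) to the highest (70.0 to 2088 CPM) the median shift was 0.82, 0.75, 0.70, 0.56 and 0.36. Genes off chromosomes 10 and 16 within the same limits had median shifts of 0.20, 0.10, 0.021, -0.066 and -0.23. The difference between members and those genes was therefore nearly level, at 0.62, 0.65, 0.67, 0.62 and 0.59. On chromosome 16 it was 0.94, 0.96, 0.94, 0.88 and 0.94. The mean over the 20 libraries includes those of cmt/dnmt3b, so the classes are not independent of the shift. With the floor of 2 CPM and the classes taken from the mean of the other 17 libraries, a choice made after seeing the data, 626 members remained. Their medians were then 0.83, 0.76, 0.68, 0.55 and 0.36, and the differences from the other genes 0.61, 0.64, 0.65, 0.61 and 0.59. These are descriptions of 3 libraries over genes that share them, so no p is given.

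**Figure D4:**
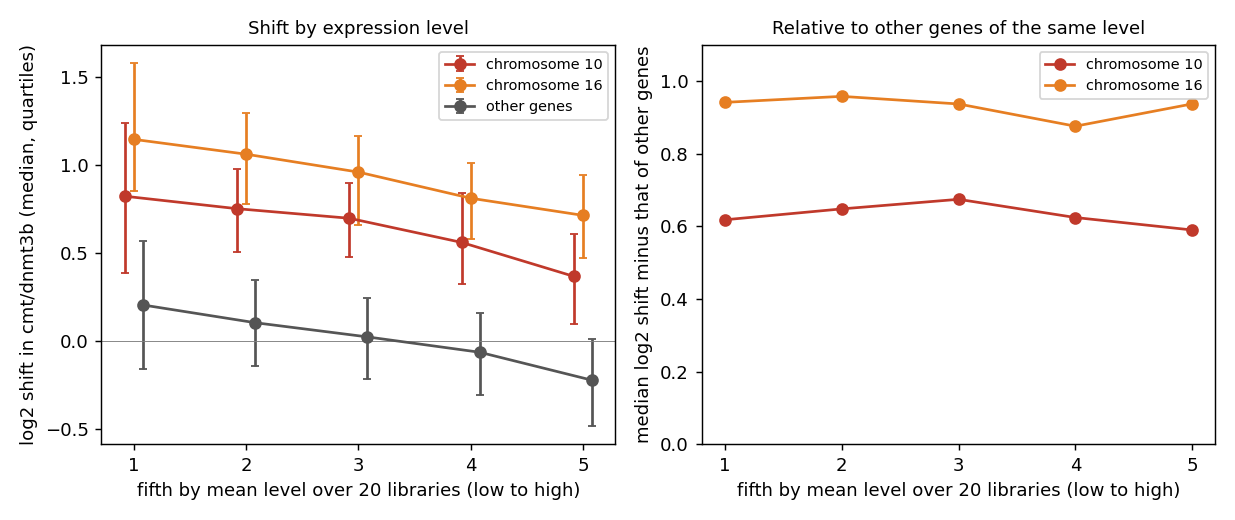
Left, median log2 shift in cmt/dnmt3b with quartiles (vertical axis) by class of mean level (horizontal axis, low to high) for chromosome 10, chromosome 16 and the other genes. Right, the medians minus that of the other genes. The left curves fall in parallel, and the right ones stay at 0.59 to 0.67 for chromosome 10 and 0.88 to 0.96 for chromosome 16.

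Members with steady levels followed the chromosome closely. Of 5 equal classes by SD, that with the smallest SD over the 17 libraries outside cmt/dnmt3b (under 0.28 on the log2 scale) had a median shift of 0.60 and quartiles of 0.42 and 0.77, and 1 of 128 members was at or below 0. In the class with the largest SD (over 0.59) the median was 0.61, but the quartiles were 0.18 and 1.20 and 24 of 128 were at or below 0. The median thus hardly changed with the spread of a gene, while the scatter around it did. Genes off chromosomes 10 and 16 within the same limits had medians of -0.042 in the class of smallest SD and 0.11 in that of largest. Of these genes, 1866 of 3297 and 1496 of 3393 were at or below 0. From the smallest SD to the largest, members differed from those genes by 0.64, 0.62, 0.65, 0.55 and 0.50. On chromosome 16 this difference was 0.91, 0.86, 0.93, 0.91 and 0.96.

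The most abundant members shifted less than the median member. The 10 with the highest wt mean held 23.1 to 24.4% of the chromosome's counts in cmt/dnmt3b, against 27.4 to 33.4% in wt. Lower shares than in every wt library were also found in the 3 dnmt3b libraries (21.3, 26.1 and 25.6%), both met libraries (25.5 and 25.0%), met/dnmt3b replicate 2 (26.5%) and cmt replicate 3 (23.1%). The other libraries of cmt and met/dnmt3b and those of drm12 lay between 27.5 and 30.7%. The 10 were picked by their wt level, which in part sets a lower share elsewhere. The member Pp3c10_12250 had 1536, 1701 and 1506 CPM in the cmt/dnmt3b libraries, against 2408, 2575 and 1604 in the wt libraries, and its shift was -0.34, although the groups overlapped. Pp3c10_17760 had 2730, 2552 and 2457 CPM in cmt/dnmt3b, against 2034, 2059 and 2264 in wt, with no overlap. Next to each other in the numbering, Pp3c10_25450 had 2682, 2506 and 3055 CPM in cmt/dnmt3b against 1628, 1496 and 1742 in wt, and Pp3c10_25460 had 1848, 1617 and 1605 against 1409, 1486 and 1187. On this scale the median gene of the genome itself was 1.20 times as high in cmt/dnmt3b, and the median member 1.83 times. The first of these 4 thus lay well below the ratio of the median gene, and the third above it. The shifts of the 10 ran from -0.34 to 0.53. By comparison, the median shift was 0.63 over the 637 members and 0.36 in the class of highest level. Without the 10 members with the most counts, the share of the chromosome was still 1.56 percentage points higher in cmt/dnmt3b than in wt, against 1.66 with them.

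Calls of single genes were made with edgeR's quasi-likelihood test on the counts of all genes and transposable elements, with genotype and batch as terms, and with p-values adjusted over all features tested. A gene is called at an adjusted p under 0.05. In cmt/dnmt3b against wt, 265 of the 773 tested members (34.3%) were called higher, where 11.3% of all 20149 genes were, and 14 (1.81%) lower, where 8.03% were. This contrast chose the chromosome, so nothing is read from the counts. The median log2 fold change of the members was 0.63, against -0.015 over all genes. Of the 265, 97 had a log2 fold change under 1, while among the other genes 285 of 2010 did. Set against their own chromosome's median, 99 members (12.8%) were at least 1 log2 unit above it and 48 (6.21%) at least 1 below, against 14.2% and 7.48% of the other genes around theirs. Without wt replicate 3, the wt library of batch 2, 89 members were called (80 higher and 9 lower), whereas the median relative to all genes was 0.65 against 0.64 with it.

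Some members changed in cmt/dnmt3b by far more than the chromosome did. Pp3c10_15640 had 21.4, 15.8 and 15.5 CPM in cmt/dnmt3b, against 0.063, 0 and 0.070 in wt. That is a ratio of 395.6, with a 95% counting interval of 115.4 to 3459, since wt held 2 counts in all. Pp3c10_21880 had 20.7, 12.7 and 19.9 CPM in cmt/dnmt3b, against 0, 0.12 and 0.14 in wt. Both were nearly silent in wt. At the other end Pp3c10_4380 had 0.82, 0.63 and 0.12 CPM in cmt/dnmt3b, against 10.7, 7.71 and 2.32 in wt. Pp3c10_15520 had 8.93, 8.89 and 9.52 in cmt/dnmt3b, against 52.4, 143.5 and 28.4 in wt, where the libraries differed widely. These 4 members were picked for the largest and smallest ratios to wt among members averaging 2 CPM or more. The groups did not overlap for any of them, but nothing is read from this, given the choice. Pp3c10_15640 and Pp3c10_21880 averaged under 2 CPM in every other genotype, so they reached that floor only through cmt/dnmt3b.

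Loss of CMT alone gave few calls of members, while 118 (15.3%) had an unadjusted edgeR p under 0.05, against 15.4% of all genes. In cmt against wt 18 members rose (2.33%, against 3.09% of all genes) and 15 fell (1.94%, against 2.12%). In either direction 5.21% of all genes were called, so the members were near the genome. The rises numbered 2, 2, 5 and 9 and the falls 6, 2, 7 and 0 in 4 successive equal parts of the tested members, from the low to the high end of the numbering. Pp3c10_15640 had 1.51, 1.61 and 2.31 CPM in cmt, against 0.063, 0 and 0.070 in wt (log2 fold change 5.07 ± 0.75 SE, adjusted p = 0.000268). All cmt libraries were above all wt libraries, at a level well under that in cmt/dnmt3b. Pp3c10_21880 rose likewise, to 1.84 ± 0.871 CPM in cmt against 0.0867 ± 0.0758 in wt (n = 3 each; log2 fold change 4.17 ± 0.81, adjusted p = 0.00375). Pp3c10_4380 had 0.18, 0.945 and 1.11 CPM in cmt, against 10.7, 7.71 and 2.32 in wt (log2 fold change -3.01 ± 0.64, adjusted p = 0.00679). Within batch 2, where cmt and wt are 1 library each, its log2 fold change was -1.15 and that of Pp3c10_21880 was 2.94. Pp3c10_16720, a member of low level, fell to 0.12, 0.056 and 0 in cmt against 0.75, 1.32 and 0.21 in wt (log2 fold change -3.77 ± 1.04, adjusted p = 0.0387). Without wt replicate 1 or 2 or any 1 of the cmt libraries, and in the fit blocked by replicate number (adjusted p = 0.0781), Pp3c10_16720 was no longer called, and without cmt replicate 2 Pp3c10_4380 had an adjusted p of 0.0501. The count of called members was 33, and it was 20 without wt replicate 2, 19 without cmt replicate 1 and 17 without cmt replicate 2. The split of 18 rises and 15 falls moved with them, to 16 and 4 without wt replicate 2, 15 and 4 without cmt replicate 1 and 12 and 5 without cmt replicate 2. It was 15 and 8 in the fit blocked by replicate number and 15 and 7 with no batch term.

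The double loss of MET and DNMT3b gave more calls, again near the share of the genome. In met/dnmt3b 47 members rose (6.08%, against 5.62% of all genes) and 36 fell (4.66%, against 4.11%), while 9.73% of all genes were called in either direction. From the low to the high end of the numbering, 8, 8, 16 and 15 of the rises and 10, 11, 5 and 10 of the falls lay in 4 successive equal parts of the tested members. Pp3c10_11420 had 0.60, 0.43 and 0.30 CPM in met/dnmt3b and 0 counts in the 3 wt libraries, at least 6.87-fold higher when wt is set to 3 counts over the group (adjusted p = 0.00237). In cmt/dnmt3b it stood at 5.61, 3.01 and 4.88 CPM. The dnmt3b libraries held it at 0.80, 0.41 and 0.18 CPM, a level like that in met/dnmt3b and without overlap with wt, but it was not called there (adjusted p = 0.169). Pp3c10_19460 had 1.54, 1.03 and 0.90 in met/dnmt3b, against 0.063, 0 and 0 in wt (log2 fold change 6.63 ± 0.98, adjusted p = 0.000194). Both stood at low levels in each met/dnmt3b library and had 1 count or none in all of wt. Pp3c10_19460 too stood higher in cmt/dnmt3b, at 3.68, 4.34 and 4.06 CPM. In dnmt3b it had 0.23, 0.25 and 0.18 CPM, above every wt library, but was not called (adjusted p = 0.496). Pp3c10_15640 and Pp3c10_21880 also rose in met/dnmt3b, to 0.44 ± 0.024 and 0.69 ± 0.39 CPM (SD, n = 3; adjusted p = 0.0170 and 0.0354). The call of Pp3c10_15640 was lost without wt replicate 2, and that of Pp3c10_21880 without any 1 wt library or met/dnmt3b replicate 2 or 3. Among the falls were 2 members close together in the numbering. Pp3c10_23730 fell to 2.67, 3.95 and 2.83 in met/dnmt3b, against 13.9, 15.5 and 10.3 in wt (log2 fold change -2.23 ± 0.41, adjusted p = 0.00105). Pp3c10_23750 fell to 0.13, 0.22 and 0.24 in met/dnmt3b, against 0.63, 1.85 and 0.77 in wt (log2 fold change -2.81 ± 0.82, adjusted p = 0.0209), and was not called without wt replicate 2 (adjusted p = 0.133) or without met/dnmt3b replicate 1 or 2. These 2 members also lay below every wt library in dnmt3b and cmt/dnmt3b. The means were 3.66 and 7.29 CPM for Pp3c10_23730 and 0.036 and 0.020 CPM for Pp3c10_23750. In dnmt3b neither was called by edgeR (adjusted p = 0.0648 and 0.0901). The count of 83 was 39 without wt replicate 1, 47 without met/dnmt3b replicate 1 and 53 without met/dnmt3b replicate 3.

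Loss of DNMT3b alone changed few members, at a share near that of the genome (1.68%, against 1.49% of all genes), where falls outnumbered rises too. In dnmt3b 2 members rose (0.259%, against 0.442% of all genes) and 11 fell (1.42%, against 1.05%). Pp3c10_6880 had 69.2, 104 and 106.2 CPM in dnmt3b, against 32.8, 40.9 and 36.8 in wt (log2 fold change 1.43 ± 0.27, adjusted p = 0.0165). It also lay above every wt library in cmt/dnmt3b, met/dnmt3b, cmt and met, at means of 101, 46.8, 70.2 and 70.6 CPM. In met/dnmt3b, cmt and met it was not called by edgeR (adjusted p = 0.674, 0.0554 and 0.248). Pp3c10_8860, the other member that rose, had 12.6, 8.88 and 9.94 in dnmt3b and 2.89, 1.79 and 4.92 in wt (adjusted p = 0.0431). Pp3c10_1200 fell to 5.71, 12.9 and 12.2 in dnmt3b, against 89.3, 75.1 and 50.9 in wt (log2 fold change -2.79 ± 0.64, adjusted p = 0.0405). Pp3c10_21310 fell to 5.02, 11.2 and 9.46 in dnmt3b, against 176.4, 355.6 and 22.8 in wt (log2 fold change -2.79 ± 0.63, adjusted p = 0.0372). The wt value of this last member was lowest in replicate 3, the library of the same batch as dnmt3b. Within batch 2, where wt is 1 library, its log2 fold change was -1.42. Of the 13 calls, 3 were left without wt replicate 2, and 2, 4 and 1 without dnmt3b replicates 1, 2 and 3. Pp3c10_8860 and Pp3c10_1200 each lost the call when any 1 library of dnmt3b or wt was left out. Pp3c10_6880 was not called without wt replicate 3 or dnmt3b replicate 3, and Pp3c10_21310 without wt replicate 2 or any 1 of the dnmt3b libraries.

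Few members passed the test in met and none in drm12. In met 1 member rose (0.129%, against 0.243% of all genes) and 4 fell (0.517%, against 0.387%). Pp3c10_40, the first of the tested members in the numbering, had 1.26 and 3.01 CPM in the met libraries, against 0.063, 0 and 0 in wt (ratio 102.1, 95% counting interval 17.8 to 4098, adjusted p = 0.0108). In met/dnmt3b it also rose, to 1.47, 1.19 and 1.27 (adjusted p = 0.00166), while it had 0 counts in the 3 dnmt3b libraries. In cmt/dnmt3b it had 0.15, 0.28 and 0.82 CPM, above every wt library. Pp3c10_1100 fell to 27.1 and 45.4 in met, against 98.8, 92.1 and 68.4 in wt (log2 fold change -1.44 ± 0.30, adjusted p = 0.0289). Pp3c10_40 was not called without wt replicate 2 (adjusted p = 0.0792), nor was Pp3c10_1100 without wt replicate 1 or 2 or met replicate 1. The count of 5 was 1 without wt replicate 1, 0 without wt replicate 2, 9 without wt replicate 3 and 1 without met replicate 1. In drm12 no member was called by edgeR, where 0.0149% of all genes were (0.00496% rose and 0.00993% fell), and DESeq2 called 0 as well. An unadjusted edgeR p under 0.05 was found for 19 members (2.46%) in drm12, against 3.99% of all genes. In met it was found for 112 (14.5%), against 14.3%.

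Pp3c10_1880 and Pp3c10_22960 are given because each fell in 3 of the 5 tested comparisons, which share the 3 wt libraries. Pp3c10_1880 had a level of 94.1 ± 15.2 CPM in cmt/dnmt3b, 75.2 ± 7.82 in met/dnmt3b, 45.8 ± 4.46 in dnmt3b and 69.6 ± 2.95 in cmt, against 124.3 ± 5.0 in wt (SD, n = 3 each). Against wt it was thus lower in cmt/dnmt3b, unlike the chromosome, but its mean there was above those of met/dnmt3b, dnmt3b and cmt. Its shift in cmt/dnmt3b against the other 17 libraries was 0.10. The log2 fold change was -0.83 ± 0.19 in met/dnmt3b (adjusted p = 0.00483), -1.47 ± 0.21 in dnmt3b (adjusted p = 0.00284) and -0.96 ± 0.18 in cmt (adjusted p = 0.00275). In met its level was 76.4 ± 8.73 CPM (n = 2), with an adjusted p of 0.0518. Pp3c10_22960 fell to 18.8 ± 1.54 CPM in met/dnmt3b (adjusted p = 0.00338), 6.09 ± 1.46 in dnmt3b (adjusted p = 0.0278) and 15.5 ± 1.97 in met (n = 2, adjusted p = 0.0176), against 36.2 ± 17.4 in wt. Its wt libraries had 48.0, 44.3 and 16.2 CPM, so that groups overlapped in met/dnmt3b and met. The lowest, wt replicate 3, is of batch 2, as are all dnmt3b libraries. In cmt replicate 3, also of batch 2, the member had 9.09 CPM, against 34.9 and 41.2 in cmt replicates 1 and 2. With batch as a term its log2 fold change in dnmt3b was -1.58 ± 0.33. Within batch 2, where cmt and wt are 1 library each, Pp3c10_1880 was not called in cmt. Pp3c10_22960 was no longer called in met without met replicate 1 or 2 or wt replicate 1 or 2, nor in dnmt3b without dnmt3b replicate 1 or 3 or wt replicate 2 or 3. Other named members were also called in further comparisons by edgeR. Pp3c10_15520 fell in cmt (adjusted p = 0.0115, groups overlapping) and in met/dnmt3b (adjusted p = 0.00303). Pp3c10_21310 fell in met/dnmt3b (adjusted p = 0.0315, groups overlapping) and Pp3c10_1100 in dnmt3b (adjusted p = 0.0439). Pp3c10_8860 rose in met/dnmt3b (adjusted p = 0.0383, groups overlapping). Each of these calls was lost in some alternative fits, except that of Pp3c10_15520 in met/dnmt3b. Changes of a member in several mutants are not independent of each other.

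**Figure D5:**
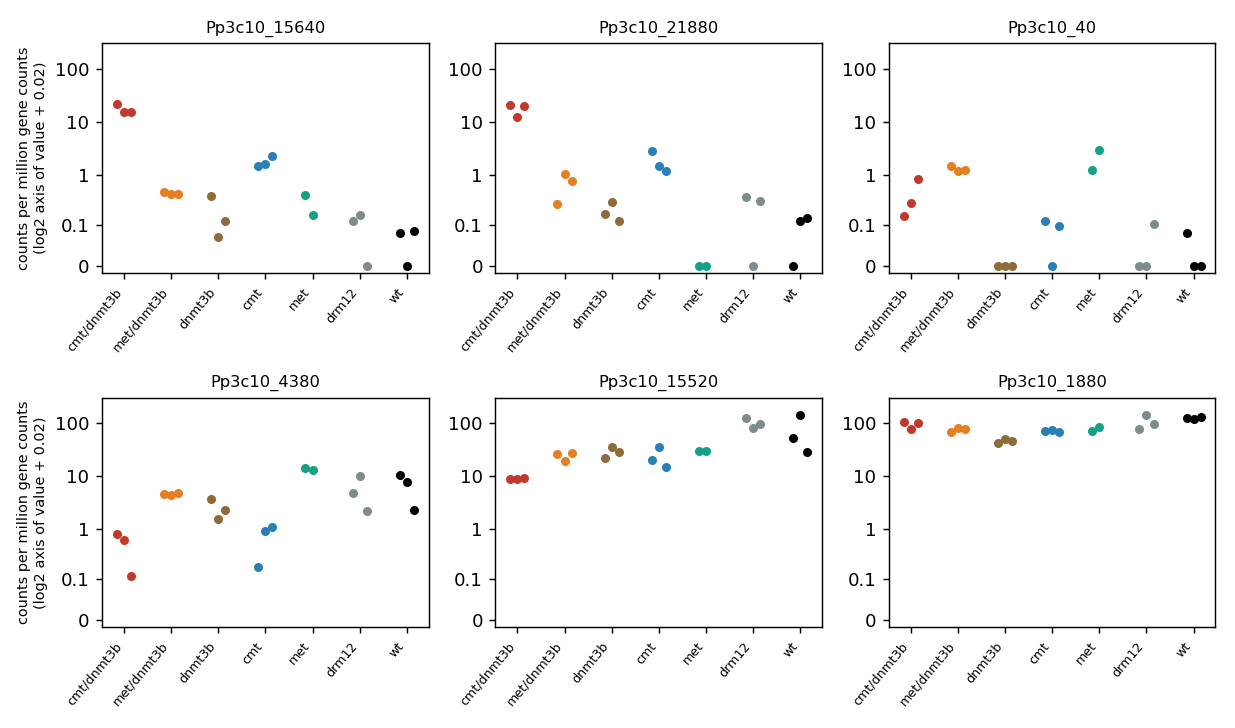
CPM (vertical axis, log2 of the value plus 0.02) of 6 members in the 20 libraries, by genotype (horizontal axis). Points are libraries. Pp3c10_15640 and Pp3c10_21880 are highest in cmt/dnmt3b and next in cmt, Pp3c10_40 is highest in met and met/dnmt3b, and Pp3c10_4380, Pp3c10_15520 and Pp3c10_1880 are lower in cmt/dnmt3b than in wt.

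Members without a count in wild type were detected most often in cmt/dnmt3b, as such genes of the whole table were. There were 123 members with 0 counts in the 3 wt libraries and at least 1 in another, and 2959 such genes in the whole table. Every library of the genotype held at least 1 count for 20 of the 123 members (16.3%) in cmt/dnmt3b, against 14.3% of the 2959 genes. In met/dnmt3b this held for 11 (8.94%, against 10.3%), in dnmt3b for 5 (4.07%, against 3.68%) and in cmt for 4 (3.25%, against 5.37%). In met, with 2 libraries, it held for 4 (3.25%, against 6.29%), and in drm12 for 2 (1.63%, against 1.82%). A mean of at least 1 CPM was reached by 4 of the 123 members in cmt/dnmt3b (3.25%, against 2.67% of the 2959 genes) and by 0 in each of the other 5 mutants, where at most 0.541% of the 2959 genes (in cmt) reached it. A count of 0 over a wt library allows up to 3 counts, which is 0.188, 0.179 and 0.211 CPM in wt replicates 1, 2 and 3.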

How the data were processed

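One table of raw counts was deposited, covering 20 libraries, with 31967 gene rows and 241351 rows of transposable elements (TEs). STAR 2.7.0f, cutadapt 1.15 and Trim Galore 0.6.0 are listed per the submitters' processing notes, with no role. How reads were counted (tool, strand, multimapping, build, annotation) is not given in the sources used here, so members with close paralogs or overlapping genes are uncertain. Genes were assigned to chromosomes by identifier, which was not checked against an annotation. Members, lists and comparisons were chosen with earlier results of these data known.

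The main fit was edgeR 4.0.16 (R 4.3.3) with genotype and batch as terms over all 20 libraries. Library sizes were sums of gene counts with TMM factors from genes, because TE counts rise in cmt/dnmt3b. The filter (minimum count 10, minimum total 15) left 20149 genes and 6602 TEs, and p-values were adjusted (Benjamini-Hochberg) over the 26751 features. SEs were derived from the F statistic. Scripts were tested on simulated data. Genes were named by rule (largest changes without overlap between groups, largest and smallest ratios in cmt/dnmt3b, highest wt means, several calls), limited to 2 rises and 2 falls per comparison because no identifier matched a name; Pp3c10_1880 and Pp3c10_22960 were named for several calls, and calls of named members in further comparisons were added after their values were seen. Alternatives were DESeq2 1.42.0, other scalings, filters and terms, single batches and left-out libraries. Same-numbered cmt and wt libraries share a batch, and their deviations from the group means correlated (r = 0.44, 0.36 and 0.53 over genes), so these were taken as paired. The other mutants were not. Same-numbered drm12 and wt libraries also share a batch, but their deviations correlated at r = -0.35, -0.30 and -0.062. The pairing of cmt was thus inferred from these data, and the main fit did not use it. The paired test of the chromosome's level and share, and the level classes from 17 libraries, were added after seeing the data.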

Additional observations from a re-analysis of the deposited data

How the results depend on the processing

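The raised level of chromosome 10 in cmt/dnmt3b kept its direction and stayed within the spread of the libraries under all alternatives run. Its median relative to all genes ran from 0.62 to 0.68 and the per-library median minus wt from 0.57 to 0.64 (log2). The calls of single members moved far more, and the cause was not tested. Leaving out 1 library gave 89 to 245 called members in cmt/dnmt3b (279 with all), 39 to 72 in met/dnmt3b (83), 1 to 12 in dnmt3b (13), 17 to 45 in cmt (33), 0 to 9 in met (5) and 0 to 1 in drm12 (0). With the replicate block the counts were 181 in cmt/dnmt3b, 1 in dnmt3b and 2 in met. For cmt, whose libraries were taken as paired with wt, the block left 15 rises and 8 falls. The terms of the block are shared by all genotypes, so this is not a fit of the cmt and wt pairs alone. Without the drm12 libraries the counts were 185 in met/dnmt3b, 20 in dnmt3b, 64 in cmt and 82 in met. With no low-count filter they were 63 in dnmt3b, 56 in cmt, 49 in met and 4 in drm12, and by DESeq2 45 in dnmt3b, 52 in cmt and 28 in met. With no batch term they were 42 in met/dnmt3b, 67 in dnmt3b and 2 in met. Within batch 2, with 1 wt library, they were 17 in cmt and 62 in drm12, and within batch 1 41 in met. TMM over genes and TEs together gave 3 in met, and requiring a change of 1 log2 unit or more left 181 in cmt/dnmt3b.

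The small differences of the chromosome as a whole in the other mutants changed sign with several choices. The median relative to all genes was 0.0020 in dnmt3b with no batch term. Leaving out 1 library it ran from -0.0035 to 0.039 in dnmt3b, from -0.0048 to 0.019 in cmt and from -0.013 to 0.034 in drm12, and the per-library median minus wt ran from -0.0044 to 0.017 in cmt, and from -0.0018 to 0.020 in drm12. The share minus wt, in percentage points, then ran from -0.20 to 0.017 in met/dnmt3b, from -0.21 to 0.0082 in cmt and from -0.0042 to 0.22 in drm12. For cmt, leaving out 1 library breaks a pair. Leaving out a whole pair, the per-library median minus wt ran from 0.00089 to 0.013 and the share minus wt from -0.12 to -0.068, so neither changed sign. Without the 10 members with the most counts it was 0.037 in met/dnmt3b, 0.12 in dnmt3b, 0.090 in cmt and 0.095 in met, whereas all 4 were below 0 with them. It was 0.065 in dnmt3b within batch 2 and -0.053 in drm12 within batch 1. The log2 fold change of Pp3c10_21310 in cmt/dnmt3b was -0.85, but 0.52 within batch 2. Depth limits mainly the members with few counts.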
